A study of Mus musculus with 2 samples.

Results

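The residual tumour cells of an allograft treated with TAK-931 were 92 barcodes of a single-cell RNA library, out of 3488 filtered barcodes in that library and 11123 barcodes in the series. A barcode was selected on measured values: more than 2000 genes, under 15% of unique molecular identifiers (UMIs) in mitochondrial genes, at least 3 UMIs of Trap1a, which encodes the P1A antigen of mouse plasmacytoma and mastocytoma lines, and at most 2 UMIs in all of Cd3e, Cd3g, Csf1r, Cdh5 and Col1a1, genes of T cells, macrophages, endothelium and fibroblasts. J558 is a BALB/c plasmacytoma line that was injected under the skin of the right flank of female BALB/c mice, and TAK-931 is an oral inhibitor of the CDC7 kinase. Mice received TAK-931 at 60 mg/kg or its vehicle, 0.5% methylcellulose, by mouth once a day, and the allografts were dissociated at day 6. Each library came from 1 allograft, and an age of 4 weeks is given for the laboratory mice in general, not for these animals. Each treatment had 1 library, so no difference between the libraries was tested, the animal, the library and the drug cannot be told apart, and every interval given here is a 95% interval for counting error only.

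CDC7 with its partner DBF4 phosphorylates the MCM helicase and lets replication origins fire, and cells in which it is blocked enter S phase with too few active origins. A plasmacytoma is a tumour of plasma cells, which devote much of their RNA to immunoglobulin chains, to the J chain that joins IgA and IgM units, and to the folding and secretory machinery of the endoplasmic reticulum. Such cells run a high demand for amino acids, and a shortage of amino acids or an overload of the endoplasmic reticulum raises the transcription factor ATF4 and its targets for amino acid synthesis, uptake and tRNA charging.

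The TAK-931 library held 6558 barcodes and the vehicle library 4565, of which 3488 and 3441 passed the filter on genes and mitochondrial UMIs. The gate took 2.64% of the filtered TAK-931 barcodes (exact interval 2.13 to 3.23%) and 87.0% of the filtered vehicle barcodes (85.8 to 88.1%), 2992 in number. The TAK-931 gated barcodes held 9.31% of the UMIs of their filtered library. Only 8 barcode sequences occurred in both libraries, and 0 of them were gated TAK-931 barcodes.

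Among filtered TAK-931 barcodes 3115 had no Trap1a UMI, 225 had 1 UMI, 24 had 2 UMIs and 124 had 3 or more. The 24 barcodes just under the threshold carried 1.95 CPM (UMIs of a gene per 1000000 UMIs summed over the barcodes) of Pou2af1 and 6211 CPM of the myeloid lysozyme gene Lyz2. The 4 gated barcodes with 4 to 8 Trap1a UMIs carried 567 CPM of Pou2af1 and 1636 CPM of Lyz2. Of the 124 barcodes with Trap1a, 32 were left out because they also carried more than 2 UMIs of the 5 genes of other lineages.

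The label fitted the marker genes. Rhox5, a homeobox gene of the testis that many tumour lines express, was at 467 CPM in the gated TAK-931 barcodes and 555 CPM in the gated vehicle barcodes, and Pou2af1, the B-lineage coactivator of octamer factors, was at 867 and 1014 CPM. At least 1 UMI of Rhox5 was found in 98.9% of the 92 barcodes and at least 1 of Pou2af1, Jchain and Mzb1 in every one. With the genes of the gate left out, the other 14 markers of the plasmacytoma together took 126212 CPM, against 5094 CPM in the other filtered barcodes of the library. On the same terms 8 T cell markers summed to 11.5 CPM against 1.77 CPM in gated vehicle barcodes and 1268 CPM in the other TAK-931 barcodes. The 10 monocyte and macrophage markers summed to 496 CPM against 23.1 CPM and 13099 CPM. The last sum was uneven, and with Csf1r counted its median was 145 CPM per residual cell and its highest value 22190 CPM. All markers of other lineages together took a median of 0.101% of the UMIs of a gated TAK-931 barcode and at most 3.96%, and 4 of 92 barcodes had 1% or more. The 7 natural killer cell markers summed to 8.84 CPM against 2.56 CPM in gated vehicle barcodes, and 3 of them, Ncr1 and Klrb1c included, had no UMI in the 92 barcodes.

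Past the filter on genes, the residual cells were RNA-rich. They held 9261 to 196973 UMIs with a median of 69393, against a median of 42435.5 in gated vehicle barcodes, a ratio of 1.64, and 67 of 92 lay above the vehicle median. The other filtered barcodes of the libraries had medians of 14891.5 and 13041 UMIs, a ratio of 1.14. Genes per barcode had medians of 6479 and 5284. Mitochondrial genes took a median of 6.79% of UMIs in the residual cells, from 0.756% to 13.7%, and 5.29% in vehicle. The residual cells were also uneven: 23 of 92 had 40000 UMIs or fewer, and all 9 barcodes under 2.5% mitochondrial UMIs were among these.

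Because tumour barcodes differed in depth, each residual cell was set beside 3 gated vehicle barcodes whose UMI totals lay within 10% of its own. This left 83 residual cells and 249 vehicle cells, with median totals of 65803 and 65840 UMIs. The other 9, all deep, with 106643 to 196973 UMIs, had too few vehicle barcodes of their depth. Each gene was compared as the ratio of its CPM in the 2 sums. A gene entered when both sums added up to at least 50 of its UMIs. Among the 9464 genes that did, 267 (2.82%) were at least 2-fold higher in the residual cells and 286 (3.02%) at least 2-fold lower, and the median log2 ratio of all genes was -0.09. These shares are the background for every count below.

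Genes of the amino acid response stood lower in the residual cells. Asns, asparagine synthetase, was at 99.0 CPM against 299 CPM in matched vehicle cells (log2 ratio -1.59, interval -1.73 to -1.46), and at least 1 UMI was found in 88.0% against 98.0% of cells. Cth, which makes cysteine from cystathionine, was at 16.0 against 93.1 CPM (log2 -2.54, -2.88 to -2.22). Atf5, a transcription factor made under the same stress, was at 9.45 against 49.1 CPM (log2 -2.38). Trib3, a pseudokinase that restrains ATF4, was found with 7 UMIs in 83 residual cells and 223 UMIs in 249 vehicle cells, or 1.35 against 14.6 CPM (log2 -3.44, -4.77 to -2.37). Adm2, a peptide hormone of the adrenomedullin family, was at 2.70 against 16.1 CPM, and Stc2, a secreted glycoprotein, at 1.35 against 6.95 CPM. All of these but Asns were among the 10 named genes with the lowest ratios, and each had a UMI in a smaller share of the residual cells than of the vehicle cells.

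To see how wide this was, 44 genes of amino acid synthesis, one-carbon metabolism, amino acid transport, tRNA charging and ATF4 signalling were listed after those values had been seen, so the list is a description and not independent evidence. Of 42 that passed the minimum count, 39 had a ratio below 0 on the log2 scale, 16 were at least 2-fold lower and 0 at least 2-fold higher, with a median of -0.84 against -0.09 for all genes. The enzymes of serine and folate metabolism were part of it: Shmt2 was at 109 against 223 CPM (log2 -1.03), Mthfd2 at 125 against 248 CPM (log2 -0.99) and Psat1 at 75.2 against 138 CPM (log2 -0.88), while Phgdh, the first enzyme of serine synthesis, was at 375 against 446 CPM (log2 -0.25). The heterodimer that imports large neutral amino acids was lower in both chains, Slc7a5 at 57.7 against 134 CPM and Slc3a2 at 176 against 328 CPM. The tRNA synthetase genes ran from Lars, for leucine, at 142 against 327 CPM (log2 -1.20) to Wars, for tryptophan, at 75.1 against 72.2 CPM (log2 0.06). Eif4ebp1, a repressor of cap-dependent translation, was at 134 against 324 CPM (log2 -1.27). Atf4 itself was at 234 against 305 CPM (log2 -0.38, -0.47 to -0.29). Ddit3, which encodes the stress factor CHOP, went the other way, at 22.8 against 16.9 CPM (log2 0.43, 0.11 to 0.75).

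The low level was spread over the cells. After each barcode was thinned to 10000 UMIs, the list took 10 to 90 UMIs in 91 residual cells, with a median of 36, and a median of 55 in 2959 gated vehicle cells. Of the 91 residual cells 86 lay below the vehicle median and 42 below its 10th percentile of 36 UMIs. The same held at both depths: medians were 36 and 58 UMIs for cells with more than 40000 UMIs and 32 and 51 UMIs for the shallower ones. Without the barcodes that carried 0.1% or more of other-lineage UMIs (Cd74 and H2-Ab1 not counted), the list's median log2 ratio was -0.84.

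**Figure D1:**
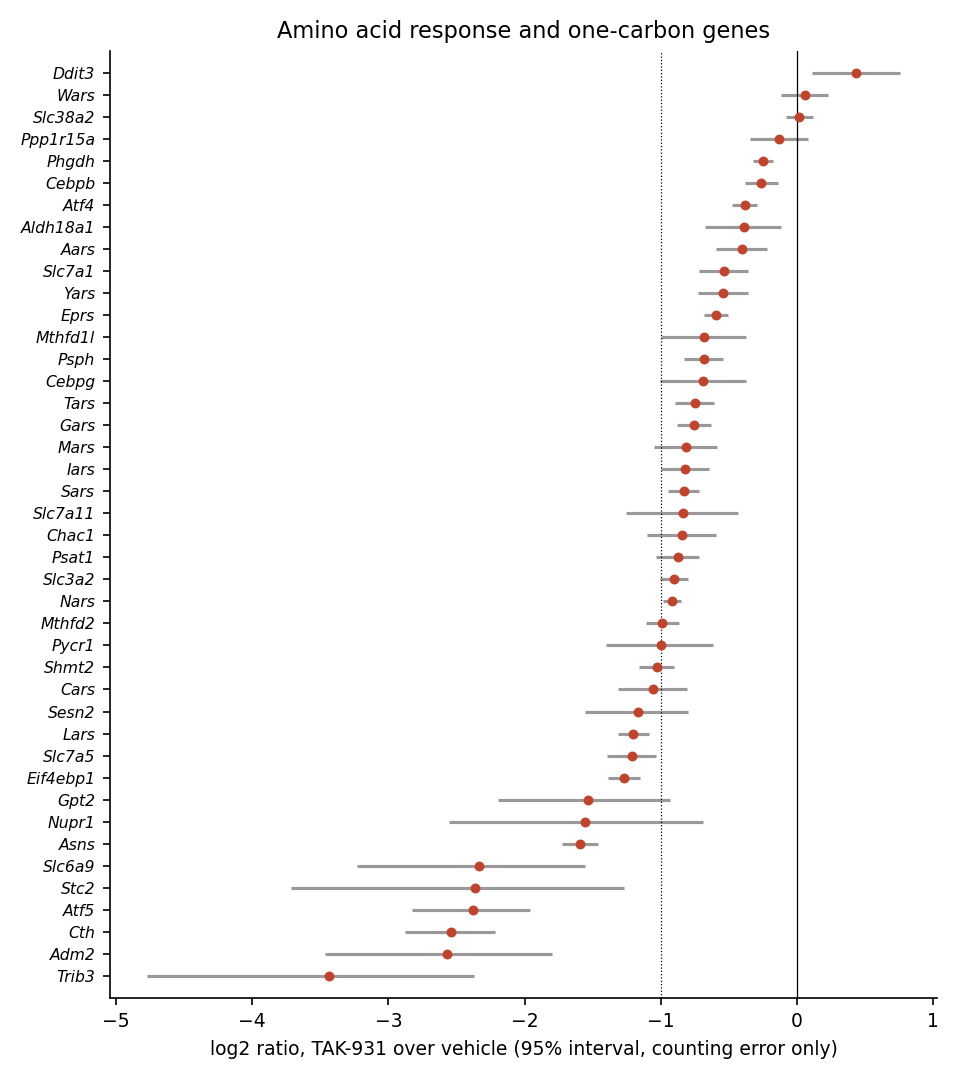
Log2 ratio of summed CPM (horizontal axis) in 83 residual TAK-931 tumour cells over 249 matched vehicle tumour cells for 42 amino acid response and one-carbon genes (vertical axis); bars are 95% intervals for counting error only. The points run from -3.44 (Trib3) to 0.43 (Ddit3), and 39 of 42 lie left of 0.

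The 250 bases before their start sites were searched for TGATGNAA and its reverse complement TTNCATCA, the core of the C/EBP-ATF response element that ATF4 dimers bind. The sequences are RefSeq promoters of the mouse build GRCm38.p6. The letters were present in 8 of 34 matched promoters of the list (23.5%), in 156 of 7549 promoters of genes that passed the minimum count (2.07%) and in 954 of all 27025 promoters (3.53%). The list holds known ATF4 targets by its choice, so its higher share is no result. They were in 0 of the 8 promoters, Trib3 and Atf5 included, that could be matched to the 10 named genes with the lowest ratios, and in 0 of the 6 that could be matched to the 10 with the highest, which says nothing of sites elsewhere. The windows of 4 genes of the list are shown with the match in capitals, in the direction of transcription, to let the sites be compared.
Asns, chr6:7693210-7693257, minus strand, match starting 23 bases before the start site: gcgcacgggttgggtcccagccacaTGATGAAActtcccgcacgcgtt
Chac1, chr2:119351024-119351081, plus strand: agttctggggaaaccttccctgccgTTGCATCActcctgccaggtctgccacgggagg
Pycr1, chr11:120643819-120643876, minus strand: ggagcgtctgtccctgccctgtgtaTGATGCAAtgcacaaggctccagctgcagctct
Slc7a11, chr3:50443628-50443704, minus strand, with 2 matches: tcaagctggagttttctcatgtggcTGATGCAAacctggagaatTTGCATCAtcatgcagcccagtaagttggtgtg
Their log2 ratios were -1.59 for Asns, -0.84 for Chac1, which degrades glutathione, and -0.84 for Slc7a11, the cystine importer, and Pycr1, the last enzyme of proline synthesis, was at 12.5 against 25.1 CPM.

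Plasma cell genes were present in the residual cells, and several stood higher than in vehicle cells. Of 18 tested genes of plasma cell identity 14 had a ratio above 0, 5 were at least 2-fold higher and 0 at least 2-fold lower, with a median log2 ratio of 0.49. Jchain (chr5:88519809-88527891, minus strand, GENCODE annotation of mm10) was at 7294 CPM against 2921 CPM (log2 1.32, 1.30 to 1.34). Thinned to 10000 UMIs, Jchain ran from 13 to 174 UMIs per residual cell with a median of 65, against a vehicle median of 25, so that 85 of 91 residual cells lay above the vehicle median and 60 above its 90th percentile. The excess was present in deep cells, at 7559 against 2935 CPM, and in cells of 40000 UMIs or fewer, at 4828 against 2785 CPM. Mzb1, a chaperone of immunoglobulin assembly, was at 1311 against 808 CPM (log2 0.70), and Irf4, a master regulator of plasma cells, at 193 against 102 CPM (log2 0.92). Tnfrsf17, the BCMA receptor, was at 94.2 against 39.5 CPM (log2 1.25). Cd38 was at 26.6 against 10.9 CPM (log2 1.29), and the lymphoid transcription factor gene Ikzf3 at 10.0 against 1.84 CPM (log2 2.45). Cxcr4 was also past 2-fold, at 80.3 against 34.5 CPM. Cd38, Ikzf3 and Cxcr4 were more abundant in the other TAK-931 barcodes, at 55.2, 22.8 and 202 CPM. The part of RNA from other cells in these ratios was not tested. Pou2af1 was at 924 against 1062 CPM (log2 -0.20). In the shallower cells alone the list's median was -0.35 over 16 genes, so its direction held only for cells with more than 40000 UMIs, where it was 0.56.

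Immunoglobulin chains did not share the excess of Jchain. Igha, the heavy chain of IgA, was at 9153 against 9056 CPM (log2 0.02), the light chain gene Iglc1 at 68349 against 58701 CPM (log2 0.22) and the light chain variable gene Iglv1 at 1105 against 966 CPM (log2 0.19). The 6 tested chains had a median of 0.08, with 0 past 2-fold in either direction. Of these, Iglc2 and Iglc3 are near-identical copies, so the split of reads between them is uncertain. Of 30 tested genes of folding and the unfolded protein response 0 were 2-fold higher and 2 were 2-fold lower, Trib3 and Asns, both named above. The abundant chaperones were near the vehicle level, with Hsp90b1 at 2406 against 2262 CPM, the translocon gene Sec61b at 1233 against 933 CPM and Hspa5 (BiP) at 1111 against 1202 CPM. Txndc5, a disulphide isomerase of secretory cells, was the highest of the list at 486 against 244 CPM (log2 0.99, 0.92 to 1.07).

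**Figure D2:**
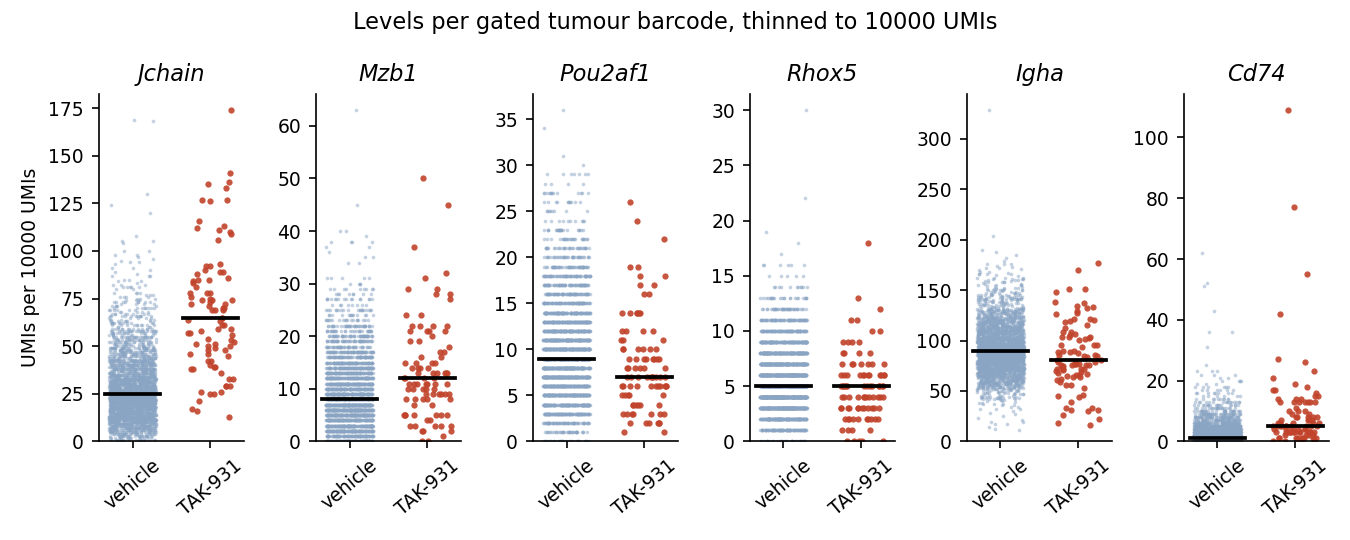
UMIs per barcode of 6 genes (vertical axes, linear from 0) after thinning to 10000 UMIs, in 2959 gated vehicle cells (blue) and 91 gated TAK-931 cells (red); black lines are medians. Jchain has medians of 65 in TAK-931 and 25 in vehicle and Cd74 of 5 and 1, while Rhox5 and Igha overlap.

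By the naming rule, the 10 genes with the highest ratios that were no lower in the residual cells than in the other cells of the library were Muc20, Tesc, Ptprcap, Nrg2, Pls1, Ccne2, Tob1, Phlpp2, Cd28 and Cyb561a3. Muc20, a membrane mucin, had 86 UMIs in the residual cells and 9 in vehicle cells, or 16.6 against 0.590 CPM (log2 4.81, 3.82 to 5.99), but 1 barcode held 16.3% of the 86 UMIs and 27.7% of cells had any. Ptprcap, which binds the CD45 phosphatase, was at 112 against 20.9 CPM (log2 2.42), with a UMI in 75.9% against 43.0% of cells. Cd28, the costimulatory receptor that plasma cells also carry, was at 94.7 against 32.2 CPM (log2 1.56). Pls1, an actin-bundling plastin, was at 64.1 against 19.9 CPM (log2 1.68) and at 2.72 CPM in the other TAK-931 barcodes. Tob1, an antiproliferative factor, was at 64.8 against 21.8 CPM (log2 1.57), and the neuregulin gene Nrg2 at 14.1 against 3.41 CPM (log2 2.05). Ptprcap and Cd28 are also T cell genes, at 97.4 and 62.9 CPM in the other TAK-931 barcodes, and the 10 T cell markers, Cd3e and Cd3g of the gate included, summed to 16.2 CPM in the matched residual cells and 1.71 CPM in the matched vehicle cells. Among cells with under 0.1% of other-lineage UMIs Ptprcap was at 110 against 20.9 CPM and Cd28 at 93.8 against 32.2 CPM, and the part of T cell RNA in these ratios was not tested. Beside the amino acid response genes, the lowest named genes were the noncoding RNA gene Trp53cor1, with 6 against 98 UMIs (log2 -2.47), Mettl27, a methyltransferase-like gene, with 4 against 63 UMIs (log2 -2.42), Glrp1, at 3.67 against 31.6 CPM (log2 -3.11), Otub2, a deubiquitinase, with 2 against 58 UMIs, and Sv2c, a synaptic vesicle protein, with 0 against 57 UMIs, which is at least 6.46-fold lower when the floor is set at 3 counts over the residual cells.

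Genes of the CDC7 pathway were near the level of matched vehicle cells. Of 22 tested genes of the kinase and the replicative helicase 0 passed 2-fold in either direction and the median log2 ratio was 0.13. Gmnn, geminin, which blocks a new round of origin licensing, was at 162 against 141 CPM (log2 0.20). Mcm6 was at 146 against 130 CPM and Mcm3 at 125 against 121 CPM, subunits of the helicase that CDC7 acts on, and Dbf4, the activator of the kinase, at 51.3 against 64.1 CPM (log2 -0.32, -0.52 to -0.12). The loading factors Ticrr, at 14.3 against 7.22 CPM (log2 0.98), and Orc1, at 10.2 against 5.44 CPM (log2 0.91), had the highest ratios. Of 38 S phase genes 1 was 2-fold higher, Ccne2, and the median was 0.10. The polymerase clamp gene Pcna was at 223 against 170 CPM, the histone chaperone gene Nasp at 177 against 219 CPM, and Pola1, of the priming polymerase, at 10.2 against 18.3 CPM (log2 -0.84). Ccne2 (chr4:11191351-11204779, plus strand, mm10), cyclin E2 of the G1 to S transition, was at 51.5 against 16.3 CPM (log2 1.66, 1.40 to 1.91), 55.5 against 16.9 CPM in cells with more than 40000 UMIs, where nearly all of its UMIs lay, and 13.9 against 11.3 CPM, from 7 and 17 UMIs, in the shallower ones.

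Histone transcripts were higher as a group. Of 39 tested replication-dependent histone genes 35 had a ratio above 0, 9 were at least 2-fold higher and 2 at least 2-fold lower, with a median of 0.67. Hist2h2ac was at 134 against 46.5 CPM (log2 1.52, 1.37 to 1.68), Hist1h2ap at 395 against 206 CPM (log2 0.93) and Hist1h1c at 265 against 177 CPM (log2 0.58), while Hist1h4d was at 3.28 against 11.3 CPM (log2 -1.78), Hist1h1a at 2.32 against 7.68 CPM (log2 -1.73) and Hist1h1e at 159 against 198 CPM (log2 -0.31). Thinned to 10000 UMIs, histone genes took a median of 17 UMIs in deep residual cells against 13 in deep vehicle cells, and of 2 against 5 UMIs in cells of 40000 UMIs or fewer, where 8 genes had a median log2 ratio of -0.32. Most histone transcripts lack a poly(A) tail, which the 3' assay primes on, and many are near-identical copies, so their levels are those of the captured part.

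The place of G2 and mitosis transcripts turned on depth. In the matched sets 1 of 55 genes was 2-fold lower and 0 were 2-fold higher, with a median log2 ratio of -0.33. That sign came from cells with more than 40000 UMIs, where the median was -0.34, while in matched cells of 40000 UMIs or fewer it was 0.10, with 14 of 25 genes above 0. Cenpe, a kinetochore motor, was at 48.0 against 99.1 CPM (log2 -1.04, -1.24 to -0.85, but 0.047 when thinned without a match), Nusap1, a spindle protein, at 47.9 against 88.2 CPM, the histone chaperone gene Anp32e at 483 against 841 CPM (log2 -0.80) and Hmgb2 at 494 against 762 CPM (log2 -0.63). The tubulin gene Tubb4b was at 355 against 421 CPM (log2 -0.25). Without the match on depth the median of the list was 0.20 over 56 genes. Depth and phase went together in vehicle cells: per 10000 UMIs, the list took a median of 17 UMIs in vehicle cells with 40000 UMIs or fewer and 59 UMIs in those with more. In the residual cells these medians were 28 and 52 UMIs. Among the residual cells with more than 40000 UMIs the list ran from 6 to 136 UMIs, and 12 of 91 residual cells lay under the vehicle lower quartile of 16 UMIs, only 4 of them shallow. Thinned without a match, Top2a was found in 67.0% of residual cells (interval 56.4 to 76.5%) and 48.3% of vehicle cells. Ccnb1 was found in 47.3% and 28.5%, Rrm2 in 67.0% and 46.3%, and Mki67 in 75.8% and 70.0%. In the other TAK-931 barcodes, of lower depth, Top2a was found in 21.5% and Mki67 in 18.4%. In the matched sets, not thinned, Top2a was found in 80.7% of residual and 79.1% of vehicle cells and Rrm2 in 85.5% and 84.3%. There Ccnb1 was found in 66.3% and 77.9%, and Mki67 in 84.3% and 85.9%.

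**Figure D3:**
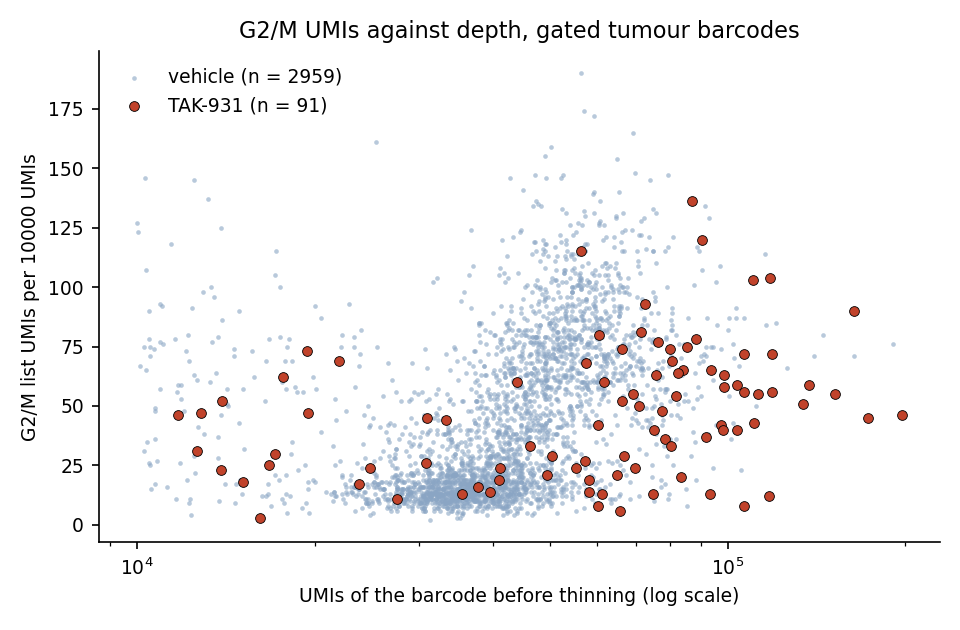
G2/M list UMIs per 10000 thinned UMIs (vertical axis) against the UMI total of the barcode (horizontal axis, log scale) in 2959 gated vehicle cells (blue) and 91 gated TAK-931 cells (red). Vehicle cells climb from a median of 17 at 40000 UMIs or fewer to 59 above, and the TAK-931 cells, which reach 196973 UMIs, have medians of 28 and 52.

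Genes of the replication checkpoint and of p53 were near the vehicle level as groups. Of 25 checkpoint genes 0 passed 2-fold, with a median of -0.04, and Topbp1, an activator of ATR, was at 86.4 against 79.8 CPM. Rpa3, of the complex that coats single-stranded DNA, was at 71.4 against 65.3 CPM and H2afx at 63.7 against 65.3 CPM. The adaptor gene Mdc1, with 70 against 336 UMIs (log2 -0.71), and the clamp gene Rad9a, with 36 against 168 UMIs (log2 -0.67), had the ratios farthest from 0. Of 19 p53 targets 2 were 2-fold lower, Sesn2 and Rrm2b, at 13.3 against 29.9 CPM and 7.33 against 15.4 CPM, and the median was -0.09; Sesn2 is also a target of ATF4. Btg2, an antiproliferative gene, was at 707 against 552 CPM (log2 0.36), and Trp53inp1, a stress gene, at 140 against 105 CPM (log2 0.41). Cdkn2a, a cell cycle inhibitor often read as a mark of senescence, was at 354 against 263 CPM (log2 0.43), with a UMI in 100% of residual and 99.2% of vehicle cells. Cdkn1a was found in 7.69% of residual cells thinned without a match (interval 3.15 to 15.2%) and 13.9% of vehicle cells. In the matched sets Cdkn1a was at 16.4 against 19.2 CPM.

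**Figure D4:**
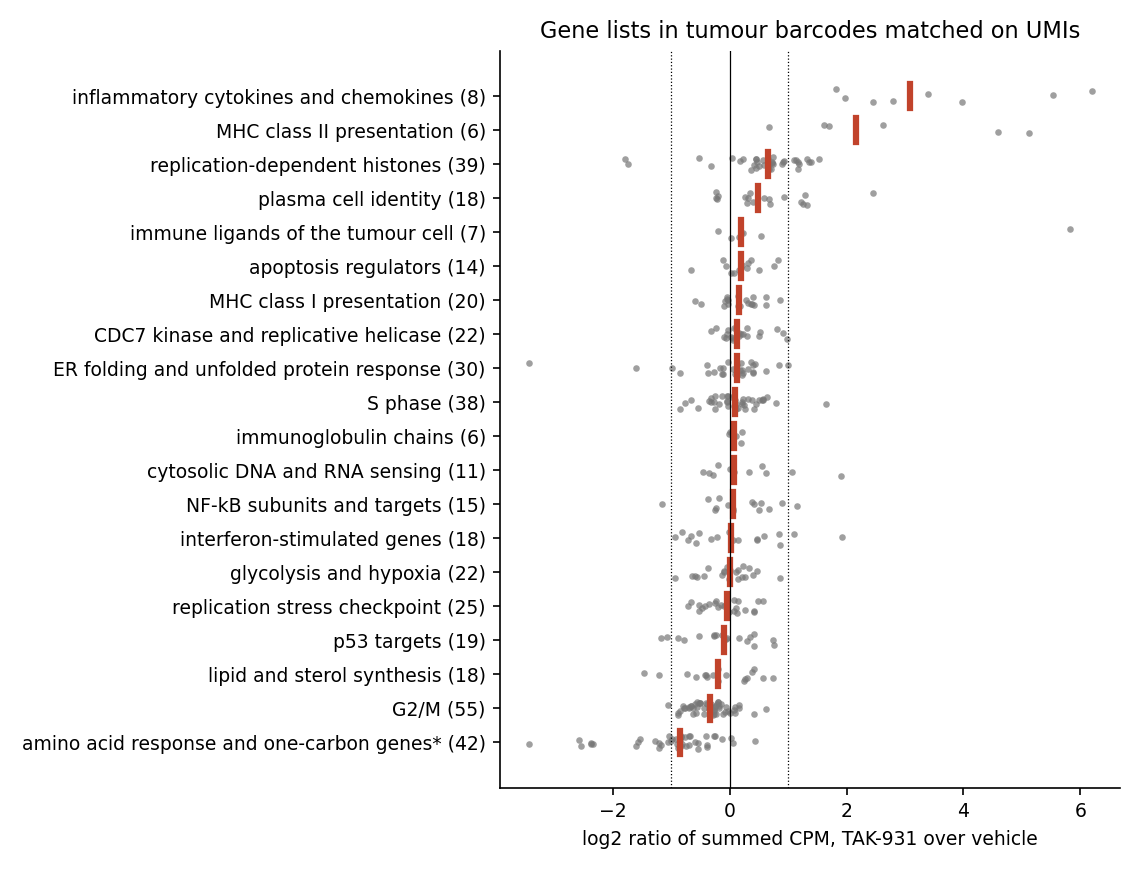
Log2 ratio of summed CPM in 83 residual TAK-931 cells over 249 matched vehicle cells (horizontal axis) for each tested gene (grey points) of 20 lists (vertical axis, number of genes in brackets); red bars are medians and dotted lines mark 2-fold. Medians run from -0.84 for the amino acid response list, marked with a star because it was chosen after its leading genes were seen, to 3.09 for inflammatory cytokines and chemokines, whose 8 tested genes reached the minimum count mostly through the residual cells.

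Most tested genes of MHC class II and of the cytokine list were far more abundant in the other barcodes of the library than in the residual cells. Of 6 tested MHC class II genes 5 were at least 2-fold higher, with a median of 2.17. Of these, H2-Aa, H2-Eb1 and H2-DMa had 36, 49 and 47 UMIs in vehicle cells and reached the minimum of 50 only with the residual cells. The count and the median are therefore no result about the list. Cd74, the invariant chain, was at 757 against 246 CPM (log2 1.62, 1.56 to 1.69). H2-Ab1, H2-Aa and H2-Eb1, which encode the chains of the molecule, were at 93.8, 82.2 and 77.0 CPM against 15.2, 2.36 and 3.21 CPM, but in the other TAK-931 barcodes they were at 3709, 4687 and 3829 CPM, and 1 barcode held 18.7% to 28.2% of their UMIs in the residual cells. As a share of the level in those other barcodes the residual cells had 2.53%, 1.75% and 2.01%. For 38 markers of other lineages that reached 20 CPM there, the median share was 1.55%, with quartiles of 0.747% and 2.62%, and in the vehicle library, over 37 markers, the median was 0.113%. Cd74 was at 10.3% of the level in the other barcodes, and in the vehicle library at 7.64%. Ctss, a protease that processes the invariant chain, was at 589 against 371 CPM (log2 0.67). Ciita, the transactivator of these genes, had 1 UMI in the residual cells and 2 in vehicle cells. Among cells with under 0.1% of other-lineage UMIs Cd74 was at 675 against 246 CPM, while H2-Aa was at 46.3 against 2.36 CPM. The part of RNA from other cells in these ratios was not tested.

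Thinned to 10000 UMIs, Cd74 had a median of 5 UMIs in residual cells and 1 in vehicle cells, with 78 of 91 above the vehicle median, and ran up to 109 UMIs. H2-Aa was found in 41.8% of thinned residual cells, in 1.96% of vehicle tumour cells and in 85.2% of the other TAK-931 barcodes, whose median depth was 14891.5 UMIs before thinning. Lyz2, which plasmacytoma cells should lack, was found in 42.9%, 1.82% and 84.0%. The share for H2-Aa was no higher than that for Lyz2, while H2-Ab1 was found in 52.7%, 14.4% and 87.2%. The source of these UMIs was not tested.

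All 8 cytokine and chemokine genes that passed the minimum count, of 26 listed, were at least 2-fold higher, with a median of 3.09. Ccl8, a monocyte chemoattractant, was at 57.5 against 0.787 CPM (log2 6.19), Ccl5, a T cell chemoattractant, at 24.1 against 0.525 CPM, and Cxcl2, a neutrophil chemoattractant, at 37.0 against 3.54 CPM, but in the other TAK-931 barcodes they were at 2123, 1675 and 1448 CPM, so that the residual cells had 2.71%, 1.44% and 2.56% of that level. Cxcl1, of the same family, was at 8.30 against 0.525 CPM (log2 3.98), with 269 CPM in the other TAK-931 barcodes. A single barcode held 61.5% of the Cxcl2 UMIs and 76.9% of those of Il1b. Tnfsf9, the ligand of 4-1BB, stood nearer to the level in the other barcodes, with 83.5% of it, at 9.07 against 1.31 CPM (log2 2.79). Il6, Il1a and Csf2 had no UMI in the residual cells. The count of 8 of 8 and the median rested on genes that reached the minimum mostly through the residual cells, and neither is a result about the list. Lgals3, galectin-3, was at 48.2 against 0.853 CPM with 3.82% of the level in the other barcodes, and was the one immune ligand of 7 past 2-fold. Cd274 (PD-L1) was at 57.5 against 51.2 CPM (log2 0.17, -0.03 to 0.36) and Cd47, the signal against phagocytosis, at 171 against 118 CPM (log2 0.53). Entpd1 (CD39) was at 108 against 93.5 CPM and Vsir (VISTA) at 17.0 against 14.4 CPM.

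**Figure D5:**
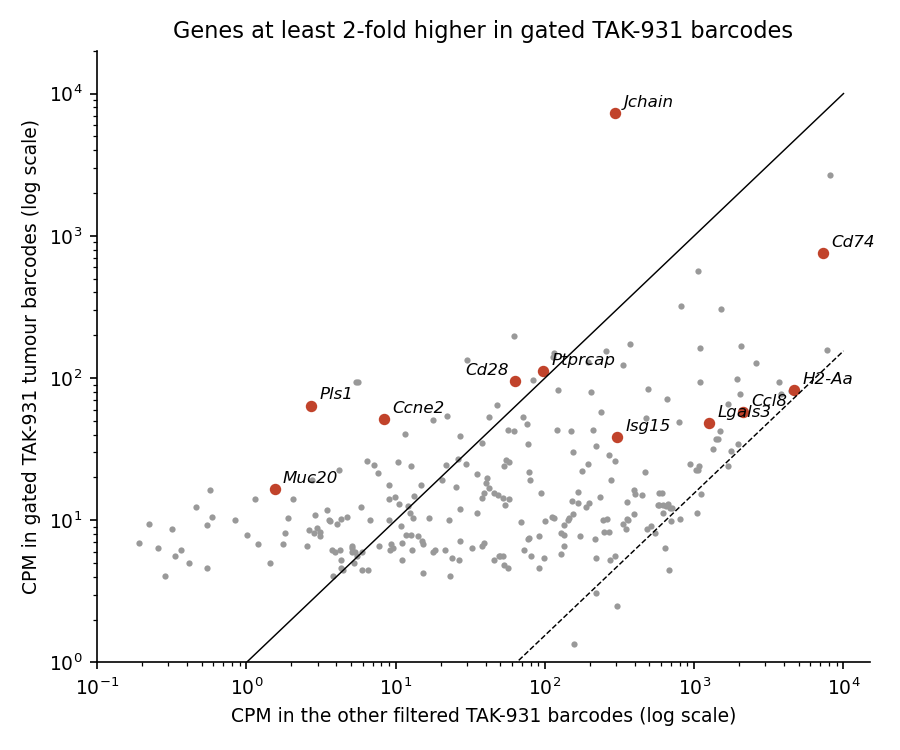
CPM in 83 residual TAK-931 tumour cells (vertical axis, log scale) against CPM in the 3396 other filtered TAK-931 barcodes (horizontal axis, log scale) for the genes at least 2-fold higher in the residual cells. The solid line marks equal levels and the dashed line 1.55% of the other barcodes' level; Jchain, Pls1, Ccne2 and Muc20 lie above the solid line, and H2-Aa and Ccl8 lie near the dashed line.

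Of the 267 genes at least 2-fold higher, 181 had a higher CPM in the other TAK-931 barcodes than in the residual cells, 86 a lower one, and 58 had over 20% of their UMIs in 1 barcode. Interferon-stimulated genes were mixed: of 18 tested 2 were 2-fold higher, with a median of 0.02. Isg15, a ubiquitin-like modifier, was at 38.6 against 10.2 CPM (log2 1.91) and Bst2, tetherin, at 135 against 75.7 CPM (log2 0.84), while Irf9 was at 11.8 against 20.7 CPM (log2 -0.82). Oasl1, the other gene past 2-fold, had 24 UMIs in the residual cells (log2 1.10), and without the barcode that held 7 of them the ratio was 0.89. The sensor gene Ddx58 was at 33.0 against 23.8 CPM and Zbp1 at 48.0 against 46.3 CPM. Ifit1, Rsad2 and Oas2 had 3, 6 and 2 UMIs in the residual cells and 0 in the matched vehicle cells, with 45.5, 80.5 and 10.5 CPM in the other TAK-931 barcodes. MHC class I genes had a median of 0.16 with 0 of 20 past 2-fold. B2m, the light chain, was at 1004 against 651 CPM (log2 0.63, 0.58 to 0.67) and H2-T23 at 130 against 71.1 CPM (log2 0.87), while H2-D1 was at 1252 against 1130 CPM (log2 0.15), the proteasome activator gene Psme1 at 857 against 885 CPM and H2-T22 at 19.5 against 12.7 CPM (log2 0.61); reads of H2 genes can be shared between near-identical copies. Of 11 genes of nucleic acid sensing 2 were 2-fold higher, Mndal and Ifi203, both of which were higher still in the other TAK-931 barcodes, and Tmem173, which encodes STING, was at 42.6 against 40.4 CPM. Without the barcode that held 16 of its 115 UMIs, the log2 ratio of Ifi203 was 0.91 in place of 1.06, and thinned to 10000 UMIs without a match it was -0.055. Banf1, a DNA-bridging protein, was at 230 against 293 CPM, the nucleotide hydrolase gene Samhd1 at 101 against 68.2 CPM and Aim2 at 43.2 against 43.1 CPM. Of 15 NF-kB subunits and targets 1 was 2-fold lower, Jun, at 161 against 360 CPM (log2 -1.16, -1.27 to -1.05), and 1 was 2-fold higher, Ier3, at 15.4 against 6.95 CPM (log2 1.15). A single barcode held 32 of the 80 Ier3 UMIs, the ratio without it was 0.59, and the other TAK-931 barcodes had 604 CPM. Sod2 was at 178 against 182 CPM, Fos at 159 against 119 CPM and Nfkbiz at 8.10 against 4.33 CPM (log2 0.90).

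Metabolic and survival genes outside the amino acid response had medians near 0 in the matched sets. Of 22 glycolysis and hypoxia genes 0 passed 2-fold and the median was 0.00. In cells of 40000 UMIs or fewer the median was 0.42, with 10 of 13 genes above 0, and thinned to 10000 UMIs without a match the list took a median of 49 UMIs in residual cells and 37 in vehicle cells. In the matched sets Gapdh was at 1492 against 1132 CPM, Pkm at 657 against 562 CPM, Ldha at 463 against 494 CPM, the hexokinase gene Hk2 at 40.3 against 22.3 CPM (log2 0.85) and Ero1l, an oxidase of the endoplasmic reticulum, at 113 against 216 CPM (log2 -0.93). The 18 genes of lipid and sterol synthesis had a median of -0.19 and 0 were 2-fold higher, and Sqle, squalene epoxidase, was at 4.63 against 12.8 CPM (log2 -1.47, -2.14 to -0.85). The desaturase gene Scd2 was at 95.3 against 80.3 CPM and the fatty acid synthase gene Fasn at 63.5 against 48.9 CPM. Of 14 apoptosis regulators 0 passed 2-fold, and the median was 0.20. Mcl1, on which plasma cells depend for survival, was at 1449 against 1507 CPM (log2 -0.06), and the death-promoting Bcl2l11 (BIM) at 103 against 57.9 CPM (log2 0.83, 0.67 to 0.99). Cflar, an inhibitor of death receptor signalling, was at 77.6 against 69.1 CPM, and the survival genes Bcl2l1 and Bcl2 were at 12.2 against 7.15 CPM and at 6.75 against 10.6 CPM.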

How the data were processed

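Droplet RNA data of both libraries (Chromium 3' v3.1) were used as the authors deposited them: unique molecular identifier (UMI) counts per gene and barcode, not normalized. The submitters' processing notes name Cell Ranger 6.0.0 and the mouse build mm10, while the study's methods name a human build for its reads; features here were mouse genes. The members and gene lists were chosen with earlier results of these data known. CPM values (per 1000000 UMIs) were computed from UMIs summed over barcodes, with ratios and exact conditional binomial intervals at 95% in Python 3.11.15 (scipy 1.17.1); 0.5 UMI was added to both sums where 1 was 0. Vehicle barcodes were matched 3 to 1 within 10% of total UMIs. Cells were thinned to 10000 UMIs by hypergeometric draws; 1 of 92 residual and 33 of 2992 vehicle cells were shallower. The filters on genes and mitochondrial UMIs were those of the methods of the study. With 1 library per treatment no test across libraries was made. Alternatives changed the gate, the match, the minimum count, the fold and the weighting of barcodes. No doublet caller was run. The text names the 10 genes with the highest and the 10 with the lowest ratio. In the set with more of the gene it needed 50 UMIs, detection in 10% of barcodes, no barcode with over 20% of its UMIs, and a CPM at or above that of the remaining filtered barcodes. Genes of the gate, predicted models, and mitochondrial, ribosomal, immunoglobulin or haemoglobin genes were not eligible. From each list the 3 most abundant genes and the 2 with ratios farthest from 0 on the log2 scale were also named, and other genes were named after their values were seen. The ratio was tested on simulated data. Cxcl11, Mx1, Mb21d1 and Sting1 were not among the features under those symbols. Results on 2 genes of a list are not reported here.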

Additional observations from a re-analysis of the deposited data

Results flagged for a closer look

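Barcodes with Trap1a and more than 2 UMIs of the 5 genes of other lineages were left out of the comparisons of residual cells above, and they made up a larger share of the Trap1a barcodes in the TAK-931 library. Their numbers were alike in both libraries, 32 of 3488 filtered TAK-931 barcodes and 30 of 3441 filtered vehicle barcodes, while barcodes with Trap1a were far fewer under TAK-931. Of 124 filtered TAK-931 barcodes with at least 3 Trap1a UMIs, 32 (25.8%, exact interval 18.4 to 34.4%) carried more than 2 UMIs of Cd3e, Cd3g, Csf1r, Cdh5 and Col1a1, against 30 of 3022 (0.993%, 0.671 to 1.41%) in the vehicle library, and this is what marked them for a closer look. The 32 had a median of 81587.5 UMIs, and in 29 of them plasmacytoma markers took at least 2% of UMIs. More than 2 UMIs of Cd3e were found in 19 of them, of Cd3g in 20 and of Csf1r in 5. In the vehicle library 13 of the 30 had more than 2 UMIs of Csf1r and 2 of Cd3e. Jchain was at 6354 CPM in the 32 and 2228 CPM in the 30. The difference was not tested, with 1 library per treatment, and doublets, cells in contact and free RNA were not told apart.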

How the results depend on the processing

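With 1 library per treatment no replicate could be left out, and no paired analysis was possible because each group had 1 sample and no test was made. Of 340 recomputed list medians 330 kept their direction and size, and of 1990 recomputed ratios of named genes 1702 did, while 286 moved and 2 reversed. Without the match on UMIs 688 genes were at least 2-fold higher and 757 lower, and the medians were 0.20 for G2/M, 0.32 for the CDC7 list and -0.029 for immunoglobulin chains. Thinned to 10000 UMIs without a match, 494 were higher and 907 lower, and the medians were 0.30 for G2/M, 0.23 for plasma cell identity, -0.055 for immunoglobulin chains and 0.31 for histones, with Cenpe at 0.047 and Ifi203 at -0.055. The minimum count set the number of genes: 792 higher and 667 lower at 10 UMIs, 91 and 115 at 200 UMIs; at 1.5-fold they were 789 and 1176. Without the top barcode of each gene 439 were lower. With 1 vehicle barcode per member the histone median was 0.78; with the mean of each barcode's CPM it was 0.44 and that of immunoglobulin chains -0.013. The vehicle share was 85.1% at 10 Trap1a UMIs, 81.9% at 1000 genes, where gated TAK-931 and vehicle barcodes had medians of 58274 and 41792.5 UMIs, and 83.9% at 2.5% mitochondrial UMIs or more. The limits on 2.5% mitochondrial UMIs, 0.1% other-lineage UMIs and 40000 UMIs were chosen after seeing the data. Where these values moved the cause was not tested.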

Other observations

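The 9 residual cells too deep to be matched, with 106643 to 196973 UMIs, had levels like those of the matched ones in Jchain, at 7540 CPM against 7294 CPM. Their Cd74 was at 1678 CPM, and 1 of them reached 1.09% of other-lineage UMIs.

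Barcodes under the gene filter were not used. Among those with over 500 and up to 2000 genes, 36 of 1147 TAK-931 barcodes (3.14%) and 208 of 722 vehicle barcodes (28.8%) had at least 3 Trap1a UMIs and at most 2 UMIs of the 5 genes of other lineages.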
